A study of Mus musculus with 4 samples.

Results

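Lysosomal hydrolases and lysosomal membrane proteins were followed in cells of S-180, a mouse sarcoma line, cultured with or without fluoxetine. The set was a list of 47 genes chosen by function: 12 membrane proteins, 11 cathepsins, 11 glycosidases, 5 sulfatases and 8 other proteins of the lysosomal lumen or its membrane. Subunits of the proton pump were not part of it. This list was made with earlier results of these data known. All 47 genes had at least 1 probe on the array, out of 23771 gene symbols with a probe, and 43 of them were bright enough to be tested among 13539 genes. The other 4, Ctsc, Ctsh, Ctso and Scarb2, were not well above background on both arrays of either group.

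Each of 4 single-colour arrays carried Cy3-labelled complementary RNA made from 10 ng of RNA. The 2 control samples came from S-180 cells cultured for 12 h in serum-containing medium without drug, and the 2 fluoxetine samples from the same line cultured for 12 h with 20 µM fluoxetine, a selective serotonin reuptake inhibitor and cationic amphiphilic drug. Per the labels these were biological replicates of 1 cell line, with no statement that cultures were separate. The spread behind each p-value is that between these samples, for the gene and in part for all tested genes together, and may be technical. The labels name no genetic change in either group. The comparison asked which transcripts differed in amount after fluoxetine.

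Lysosomes are acidic, membrane-bound compartments in which proteins, glycans, sulfated sugars and lipids are degraded. Soluble hydrolases reach them from the secretory pathway, mostly by the mannose 6-phosphate receptors, while heavily glycosylated membrane proteins form the boundary and transporters carry the products out. Many genes of this compartment carry E-box motifs of the CLEAR type, which are bound by transcription factors of the TFEB and TFE3 family.

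Of the spots that were not controls, 51.7% to 53.5% per array exceeded the background clearly, with 0 saturated spots. Pearson's r, over 25833 probes detected on every array, was 0.993 between the controls, 0.995 between the fluoxetine arrays, and 0.976 to 0.983 between groups (across probes, which are not independent replicates). Of 8 mesenchymal markers, both control arrays detected 6 and both fluoxetine arrays 5, while Pdgfrb and Thy1 were above it on no array. Their summed signal, on the scale defined below, was 47100 and 41500 in the controls and 41700 and 40300 with fluoxetine. Col1a1, Col1a2 and Sparc were lower by the test (50% of the 6 tested, beside 10.2% of all tested genes). The epithelial markers Krt8, Krt18, Krt19 and Epcam were also above background on both arrays of each group, and the 6 epithelial markers summed to 90900 and 96400 in the controls and 80900 and 78900 with fluoxetine. Cdh1, Cldn4 and 4 of 5 endothelial markers were above background on no array. The part of these markers in the values below was not tested.

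Signals below are processed intensities scaled so that the 75th percentile of every array is 408. They compare arrays for 1 probe and do not rank genes. Changes are log2 values, fluoxetine minus control, with the standard error from limma and n = 2 arrays per group, and each gene is read by its brightest detected probe. The words rose and fell are kept for genes with a Benjamini-Hochberg adjusted p under 0.05 in limma over all 13539 genes. For 1 gene alone, 2 arrays against 2 allow an exact two-sided permutation p of 0.333 at the lowest.

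Most of the lysosomal genes were higher with fluoxetine, by moderate amounts. Of 43 tested members, 18 rose (41.9%), where 16.8% of all tested genes rose. In turn 2 fell, Idua and Slc17a5, where 10.2% of all tested genes fell. The members were read by brighter probes, with a median log2 level of 3.79 against 1.59 for all tested genes. The part of brightness in these shares was not tested. The median change of the members was 0.32, against 0.06 for all genes tested, and 35 of 43 had a value above 0, as did 55.8% of all genes. Only Cd68 and Neu1 among the rises exceeded 2-fold. The groups were fully apart in 36 members, 31 of them with fluoxetine higher, where 72.5% of all tested genes had groups apart in either direction. Ctsk was the only tested member kept through the fluoxetine arrays alone, since just 1 control array read it above background. In this bulk RNA, fewer cells of a type and less RNA per cell cannot be told apart.

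The number of calls rested on few arrays. With any 1 array left out, limma called fewer members or none, and fewer genes or none over all tested genes. The direction of all 20 called members was kept in each of these fits. Their groups did not overlap, so leaving out 1 array could not turn it. The median change of the members stayed between 0.31 and 0.32, beside 0.02 to 0.09 for all tested genes.

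**Figure D1:**
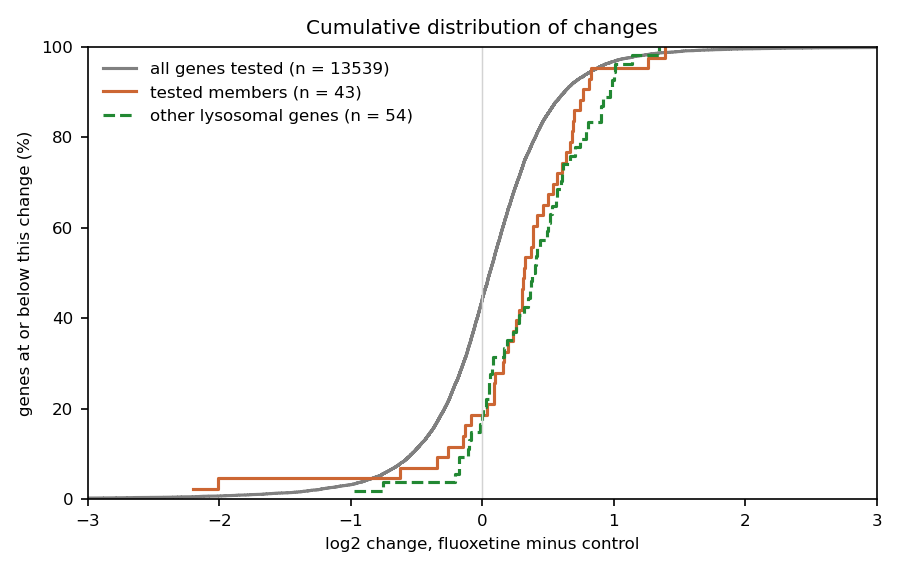
Cumulative share of genes (y axis, percent) at or below each log2 change, fluoxetine minus control (x axis). Curves are for all 13539 tested genes, the 43 tested members and 54 other tested genes linked to lysosomes. Both lysosomal curves lie to the right of the curve of all genes over most of the range, with medians of 0.32 and 0.39 against 0.06.

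**Figure D2:**
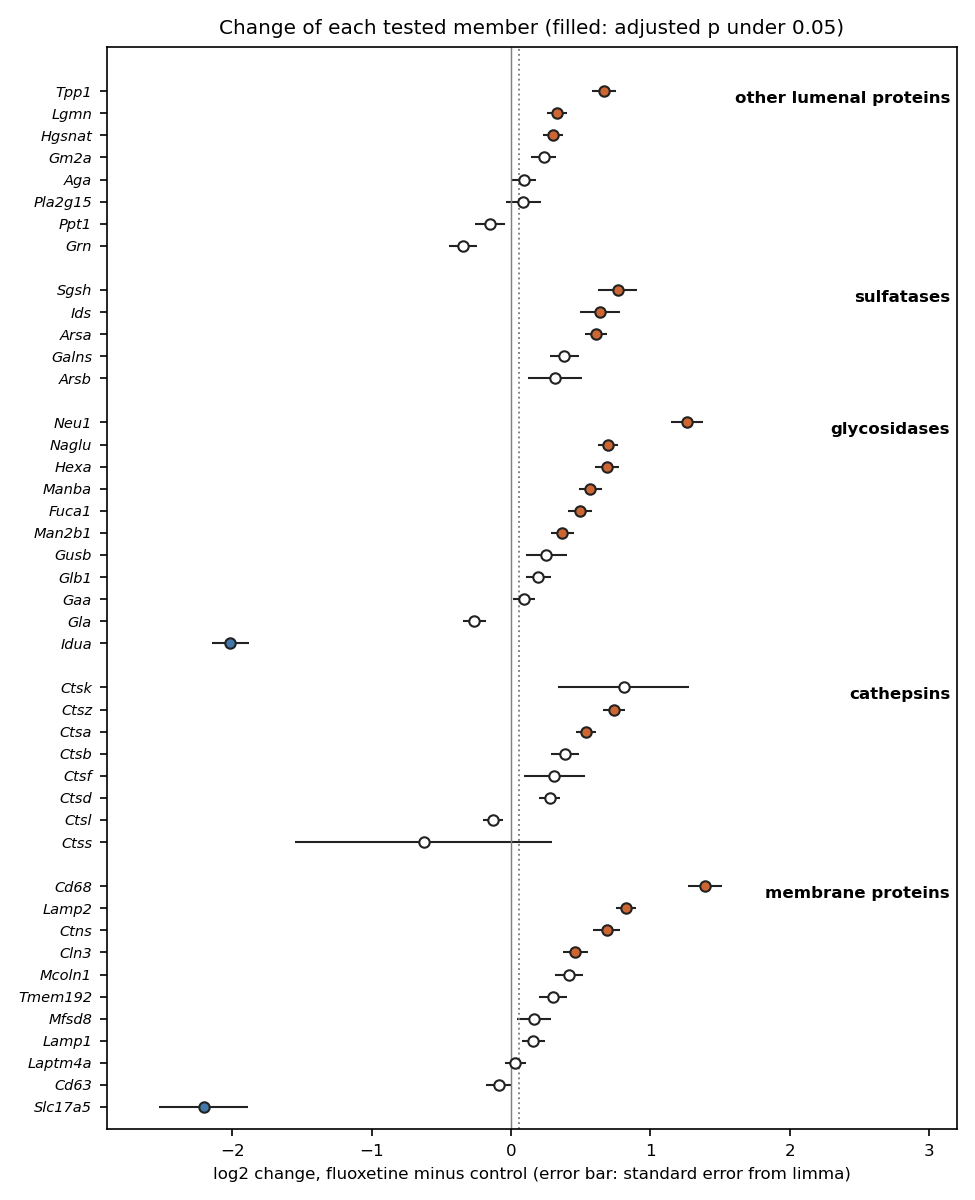
Log2 change of each of the 43 tested members (points) with its standard error (bars), grouped by class; filled points passed an adjusted p of 0.05 and the dotted line is the median of all tested genes, 0.06. The 18 filled points on the right are the rises, and the 2 filled points near −2 are Idua and Slc17a5.

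Membrane proteins of the lysosome held the largest rise of the set, that of Cd68. Among the 11 tested, 4 rose (36.4%, beside 16.8% of all tested genes), 6 missed the threshold and 1 fell (10.2% of all tested genes), a call for Slc17a5 that depends on the probe, and the median was 0.30. Cd68, a heavily glycosylated lysosomal membrane protein best known from macrophages, had signals of 7960 and 8950 in the controls and 23900 and 20500 with fluoxetine. Both fluoxetine arrays were far above both controls, a rise of 1.39 ± 0.12 or 2.62-fold (adjusted p = 0.0119). Its other probe read 1180 and 1440 against 4110 and 4270, a change of 1.68 ± 0.13. Cd68 was thus higher on both of its probes.

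Because Cd68 is used as a macrophage marker, 14 other macrophage markers were read on the same arrays. Ptprc, Adgre1, Lyz2, Spi1, Tyrobp, Fcgr1 and Cx3cr1 were above background on no array, and 6 of the 14 were above it on both arrays of each group. Their summed signal was 7560 and 7930 in the controls and 5900 and 5590 with fluoxetine. Most of that difference lay in the integrin gene Itgam, which fell from 2010 and 1970 to 506 and 519 (−1.96 ± 0.07) but had the opposite sign on its other detected probe. Among the 6 tested, 0 rose and 2 fell, Itgam and the mannose receptor gene Mrc1 (−0.67 ± 0.08), beside 16.8% and 10.2% of all tested genes. Cd14 gave the largest part of the sum, at 5030 and 5440 in the controls and 4920 and 4660 with fluoxetine (−0.13 ± 0.09). It did not pass, nor did Csf1r (−0.16 ± 0.10), Aif1 (−0.39 ± 0.13) or Fcer1g (0.27 ± 0.28). The part of these markers in the Cd68 value was not tested.

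Lamp2, which with Lamp1 makes up much of the glycoprotein coat of the lysosomal membrane and is needed for chaperone-mediated autophagy, gave 3650 and 3710 in the controls and 6500 and 6510 with fluoxetine. The replicates were close and the groups well apart, with a rise of 0.82 ± 0.07 (adjusted p = 0.0119) and 0.85 ± 0.10 on its other probe. Lamp1 read 39000 and 41400 against 46200 and 43600. That difference of 0.16 ± 0.08 did not pass (adjusted p = 0.213), although the groups did not overlap. Ctns, the exporter of cystine, rose from 1040 and 1150 to 1830 and 1690 (0.69 ± 0.10, adjusted p = 0.0205). Cln3, a membrane protein mutated in juvenile Batten disease, also rose (0.46 ± 0.09, and 0.72 as the mean of its probes).

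Slc17a5, which encodes sialin, the exporter of sialic acid, gave opposite readings on its pair of detected probes. The brighter probe fell from 1660 and 1540 in the controls to 256 and 471 with fluoxetine, a change of −2.20 ± 0.32 (adjusted p = 0.0207). On the dimmer probe, named for the same transcript, signals went up from 124 and 143 to 317 and 314, a change of 1.25 ± 0.11. With the mean of both probes the change was −0.48 and did not pass (adjusted p = 0.109), so the call for Slc17a5 depends on which probe is read.

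The remaining membrane proteins did not pass on their brightest probes, and other probes of Tmem192 and Mfsd8 are given below. Mcoln1, a lysosomal cation channel that releases calcium, was at 0.42 ± 0.10 (adjusted p = 0.0534) and Tmem192 at 0.30 ± 0.10. Mfsd8, a transporter-like protein mutated in another form of Batten disease, was at 0.17 ± 0.12. Laptm4a was at 0.03 ± 0.08, a value that turned slightly negative under 3 other ways of scaling or background correction. The tetraspanin gene Cd63 read 56000 and 61600 in the controls and 57400 and 53400 with fluoxetine, with overlapping groups and a change of −0.09 ± 0.09. Scarb2, the receptor that carries glucocerebrosidase to lysosomes, was above background on no array with either of its probes.

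**Figure D3:**
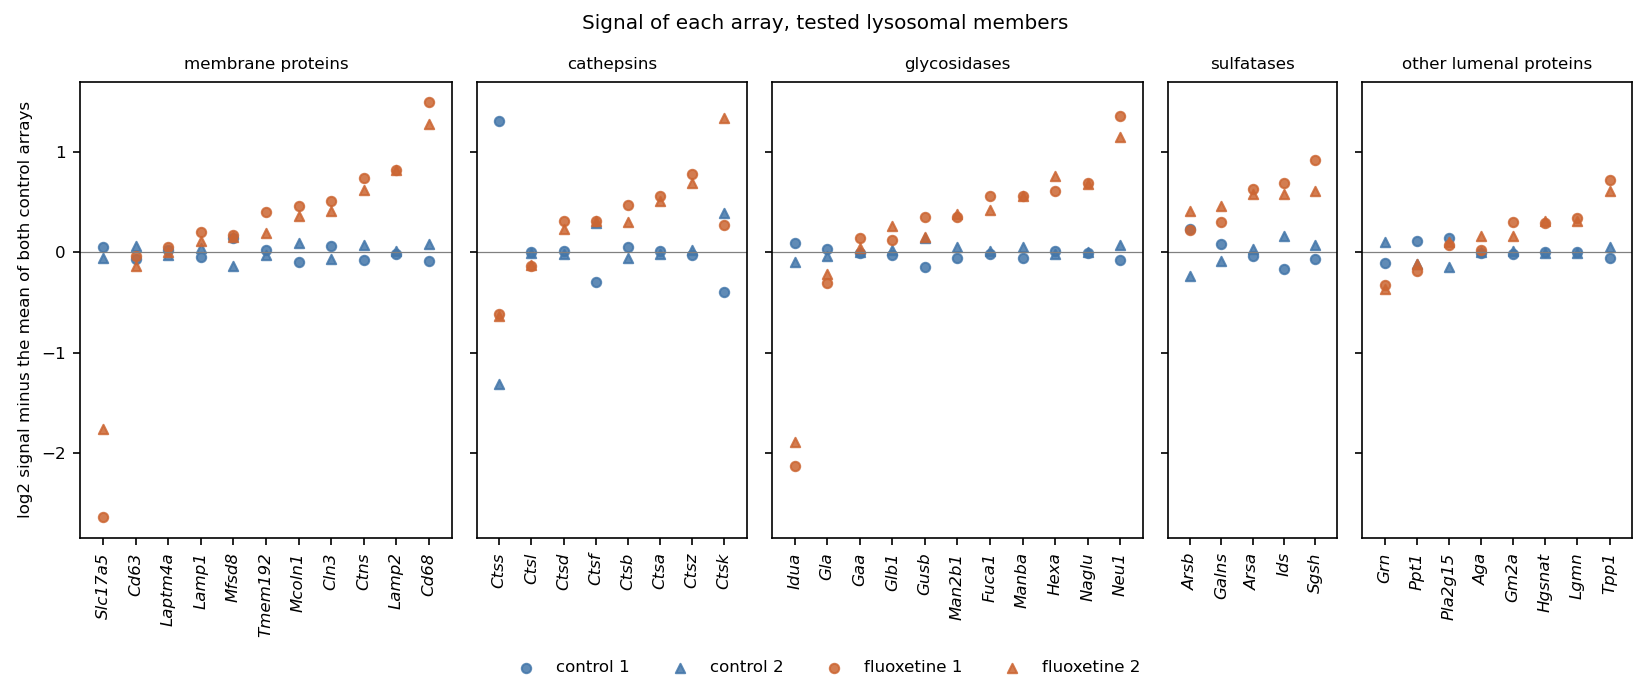
Log2 signal of every array minus the mean of both control arrays (y axis) for the 43 tested members in 5 classes (x axis, ordered by change); blue marks are controls, orange marks fluoxetine, circles replicate 1 and triangles replicate 2. Control marks stay near 0 for most members and are widest apart for Ctss and Ctsk, and orange marks lie above them for most genes, with Slc17a5 and Idua far below.

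Cathepsins were split between moderate rises and genes with little or no detectable difference. Among the 8 tested, 2 rose (25%, beside 16.8% of all tested genes) and 0 fell (10.2% of all tested genes), and the median was 0.35. Ctsz, which encodes cathepsin Z, a carboxypeptidase, gave 12400 and 12800 in the controls and 21700 and 20400 with fluoxetine, a rise of 0.74 ± 0.08 (adjusted p = 0.0144). Ctsa, the serine carboxypeptidase that protects the sialidase and beta-galactosidase in a complex, rose from 7080 and 6970 to 10400 and 10000 (0.54 ± 0.07, adjusted p = 0.0195). In both genes every fluoxetine array lay above every control.

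The main endopeptidases of the lysosome did not pass. The aspartic protease gene Ctsd read 16500 and 16200 in the controls against 20300 and 19200 with fluoxetine, a difference of 0.28 ± 0.08 (adjusted p = 0.0673). For the cysteine protease gene Ctsb the change was 0.39 ± 0.10 (adjusted p = 0.0595). Ctsl, another cysteine protease gene, went slightly the other way, from 26700 and 26500 to 24300 and 24300 (−0.13 ± 0.07, adjusted p = 0.239). The groups did not overlap in any of these genes.

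Some cathepsins were read close to background or with widely spread replicates. Ctss, a cysteine protease of antigen-presenting cells, read 548 on control 1 but 88.5 on control 2, and 143 and 142 with fluoxetine. Its change of −0.62 ± 0.92 became 0.69 without control 1 (adjusted p = 0.0509) and −1.94 without control 2 (adjusted p = 0.0132), so no direction can be given. The osteoclast protease gene Ctsk was dim, at 21.9 and 37.9 against 34.8 and 73.3, with overlapping groups and a change of 0.81 ± 0.47. Ctsf, a cysteine protease gene, was also dim and at 0.31 ± 0.22. Leaving out control 1 gave 0.02 for Ctsf, and leaving out control 2 gave 0.61 (adjusted p = 0.0407). Ctsc, Ctsh and Ctso were too dim to be tested.

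Among the glycosidases, which remove sugars from glycoproteins, glycolipids and glycosaminoglycans, 6 of 11 rose (54.5%, beside 16.8% of all tested genes), 1 fell (10.2% of all tested genes), the other 4 missed the threshold, and the median was 0.37. Neu1, the lysosomal sialidase, rose most, from 7170 and 7960 in the controls to 19500 and 16800 with fluoxetine (1.26 ± 0.12, 2.40-fold, adjusted p = 0.0124). Naglu, an N-acetylglucosaminidase of heparan sulfate breakdown, read 5890 and 5960 against 9620 and 9560, a rise of 0.69 ± 0.07 (adjusted p = 0.0137). Hexa, the alpha subunit of beta-hexosaminidase, went from 5010 and 4900 to 7600 and 8410 (0.69 ± 0.09, adjusted p = 0.0175). Replicates of these genes lay close together compared with the distance between groups.

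Enzymes that trim the sugars of glycoproteins also rose: the beta-mannosidase gene Manba by 0.57 ± 0.08, the fucosidase gene Fuca1 by 0.50 ± 0.09 and the alpha-mannosidase gene Man2b1 by 0.37 ± 0.08, with adjusted p from 0.0207 to 0.0436. Gusb, beta-glucuronidase (0.25 ± 0.15), Glb1, beta-galactosidase (0.20 ± 0.09), and Gaa, the alpha-glucosidase that degrades glycogen (0.10 ± 0.08), did not pass. Each is read by its brightest probe, and another probe of Glb1 is given below. Gaa read 12600 and 12700 in the controls against 14000 and 13000, and its value was −0.051 with another background correction. Gla, the alpha-galactosidase deficient in Fabry disease, read 37800 and 36100 against 29800 and 31800, lower on both fluoxetine arrays but not past the test (−0.26 ± 0.08, adjusted p = 0.085).

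Idua, the iduronidase that acts on heparan and dermatan sulfate, was the glycosidase gene that fell. Its only probe read 1460 and 1280 in the controls and 312 and 370 with fluoxetine. The groups were far apart, with a change of −2.01 ± 0.13 or 4.03-fold (adjusted p = 0.00989). This change stayed between −2.14 and −1.89 when each array was left out in turn. No other probe was on the array to compare it with.

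All 5 sulfatases were tested and had values above 0, with the highest median of the classes (0.61), and 3 of them rose (60%, beside 16.8% of all tested genes). Sgsh, the sulfamidase of heparan sulfate breakdown, read 31400 and 34600 in the controls and 62400 and 50500 with fluoxetine, a rise of 0.77 ± 0.14 (adjusted p = 0.0296). Ids, iduronate sulfatase, rose from 2250 and 2820 to 4070 and 3770 (0.64 ± 0.14, adjusted p = 0.042). Arsa, which removes sulfate from sulfatide lipids, rose from 10600 and 11100 to 16900 and 16200 (0.61 ± 0.08, adjusted p = 0.0175). The groups were apart in all 3 genes, with the replicates of Arsa the closest.

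The other sulfatases were dimmer. Galns, the galactosamine sulfatase of keratan sulfate breakdown, read 177 and 158 against 207 and 230 on its brighter probe. That change was 0.38 ± 0.11 (adjusted p = 0.0658), and its other probe is given below. Arsb, which acts on dermatan and chondroitin sulfate, read 134 and 96.2 against 132 and 151, so its groups overlapped (0.32 ± 0.19). Differences between the class medians were not tested.

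The 8 other members had the lowest class median (0.16), and 3 of them rose (37.5%, beside 16.8% of all tested genes) while 0 fell. Tpp1, the tripeptidyl peptidase deficient in late infantile Batten disease, read 4900 and 5270 in the controls and 8390 and 7770 with fluoxetine (0.67 ± 0.09, adjusted p = 0.0187). Lgmn, the asparaginyl endopeptidase that also processes cathepsins, rose from 2600 and 2580 to 3280 and 3220 (0.33 ± 0.07, adjusted p = 0.0422). Hgsnat, the membrane-bound acetyltransferase of heparan sulfate breakdown, rose from 3530 and 3500 to 4300 and 4360 (0.30 ± 0.07, adjusted p = 0.0497). The call for Hgsnat lay at the threshold and was kept in only 2 of 13 other settings.

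Members of this group that did not pass were the lipid-binding activator gene Gm2a (0.23 ± 0.09), the amidase gene Aga (0.09 ± 0.09) and the phospholipase gene Pla2g15 (0.09 ± 0.12, and −0.055 without control 2). Ppt1, a thioesterase that removes palmitate from proteins, read 2740 and 2340 against 2220 and 2340, with overlapping groups (−0.15 ± 0.11). Its 3 probes did not move together: a second probe was at −0.11 and the third at 0.49 ± 0.09, and their mean was 0.08.

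Grn, which encodes progranulin, a precursor of lysosomal granulin peptides, was read by 3 probes named for the same transcript. On the brightest probe its signals were 131000 and 150000 in the controls and 112000 and 109000 with fluoxetine, a change of −0.35 ± 0.10 that did not pass (adjusted p = 0.0749). The second-brightest probe read 33900 and 36900 against 86600 and 76400, a change of 1.20 ± 0.11, and the dimmest 920 and 880 against 3190 and 2830, a change of 1.74 ± 0.10. Both of these passed over all probes, at adjusted p = 0.0151 and 0.0142. The mean over all 3 probes was 0.87 (adjusted p = 0.0152), so the direction for Grn turns with the probe.

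**Figure D4:**
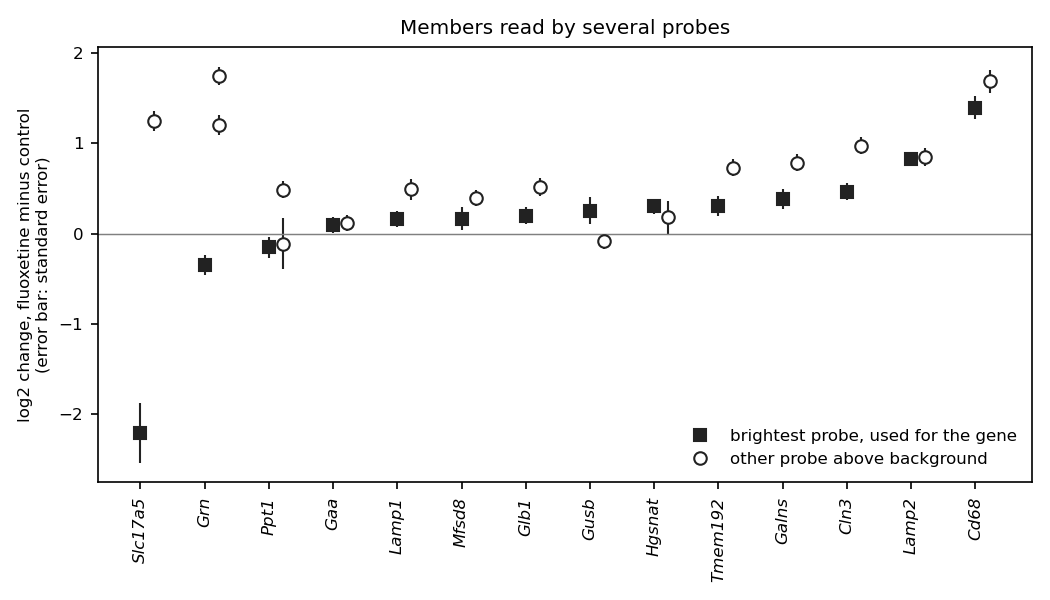
Log2 change (y axis) with its standard error on each detected probe of the 14 members read by several probes (x axis); squares are the brightest probe, which stands for the gene, and open circles the other probes. Open circles lie above the square for most genes, and for Slc17a5, Grn, Ppt1 and Gusb probes fall on both sides of 0.

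The members were also read over every detected probe. They had 59 such probes, of which 49 had values above 0. In a limma fit over all 28270 detected probes, 25 of the 59 rose (42.4%) and 2 fell, where 12.6% of all probes rose and 13% fell. The brightest probes of Hgsnat, Lgmn, Man2b1 and Ids, which rose in the fit over genes, did not pass there (adjusted p = 0.0651, 0.0555, 0.0556 and 0.0501). In 12 of the 14 members with several probes (85.7%), the mean change of the other probes was above that of the brightest, against 51% of 4968 genes in all. For these 14 members the median change was 0.23 on the brightest probe and 0.62 over the others, while for the 4968 genes both medians were 0.07. Tmem192 (0.73 on its other probe), Galns (0.78), Glb1 (0.51) and Lamp1 (0.49) show this gap. In the fit over probes, these other probes of Tmem192, Galns and Glb1 passed (adjusted p = 0.0207, 0.0182 and 0.0357). That of Lamp1 did not (adjusted p = 0.0501). Dimmer probes of Mfsd8 (0.39, adjusted p = 0.0472) and Ppt1 (0.49, adjusted p = 0.0375) passed as well. The brightest probes of these genes did not pass. Gaa and Gusb had no probe that passed. Probes differed in direction for 4 of the 14 members (28.6%), against 42.4% of those 4968 genes.

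Enzymes of a single degradation route can be set side by side. Heparan sulfate is taken apart by, among others, the products of Ids, Idua, Sgsh, Hgsnat, Naglu and Gusb, a grouping made here after the values were seen. Of these 6 genes, Ids, Sgsh, Naglu and Hgsnat rose by 0.30 to 0.77, where 16.8% of all tested genes rose. The call for Hgsnat lay at the threshold. Gusb did not pass, and Idua fell by 2.01 on the log2 scale, where 10.2% of all tested genes fell. In the sialidase complex, Neu1 was at 1.26, its protector Ctsa at 0.54, and Glb1 at 0.20 without passing.

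The promoters of the members were searched for the core of the CLEAR-type E-box, with RefSeq windows of 300 bases (250 before to 50 after the annotated start, build GRCm38.p6). Windows were matched for 42 of 47 members, all but Aga, Ctsb, Ctsh, Galns and Hgsnat, and a gene with several windows counted if any held the motif. The letters TCACGTG on either strand were found in 12 of the 42 (28.6%), against 4.29% of 27025 genes with a window, tested or not. As said above, many genes of this compartment are known to carry such motifs, so this share describes the list and not the drug. The shorter CACGTG, which every TCACGTG contains, was found in 14 of 42 (33.3%), against 8.09%, and the palindrome TCACGTGA in 5 (11.9%), against 1.12%. The stretches below show 4 genes that rose and carry the motif, then Lamp1 and Mcoln1, which carry it without having passed, then Neu1 and Cd68, the largest rises, which lack it. Capitals mark TCACGTG or its reverse complement CACGTGA.
Ctsa: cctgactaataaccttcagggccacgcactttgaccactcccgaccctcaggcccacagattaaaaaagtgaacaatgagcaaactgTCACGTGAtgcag
Naglu: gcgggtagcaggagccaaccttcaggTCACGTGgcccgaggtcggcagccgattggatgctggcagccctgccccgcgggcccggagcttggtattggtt
Arsa: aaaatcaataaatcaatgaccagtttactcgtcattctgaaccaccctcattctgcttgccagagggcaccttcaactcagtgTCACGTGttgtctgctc
Cln3: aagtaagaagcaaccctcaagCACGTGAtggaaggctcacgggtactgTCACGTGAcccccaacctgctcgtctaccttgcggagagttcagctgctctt
Lamp1: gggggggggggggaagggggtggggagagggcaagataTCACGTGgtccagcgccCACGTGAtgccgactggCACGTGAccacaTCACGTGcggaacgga
Mcoln1: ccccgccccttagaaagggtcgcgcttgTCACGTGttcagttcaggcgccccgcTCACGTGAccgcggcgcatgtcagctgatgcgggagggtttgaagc
Neu1: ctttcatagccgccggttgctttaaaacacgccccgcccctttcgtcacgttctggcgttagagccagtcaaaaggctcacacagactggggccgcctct
Cd68: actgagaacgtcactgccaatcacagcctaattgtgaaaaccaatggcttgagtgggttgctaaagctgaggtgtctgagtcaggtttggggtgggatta
Each run has 100 bases, 5′ to 3′ on the gene's strand, ending at the base before the annotated start, except that of Cln3, which ends 71 bases before it. In the order shown they lie at chr2:164833673-164833772 (plus strand), chr11:101069994-101070093 (plus strand), chr15:89477425-89477524 (minus strand), chr7:126583307-126583406 (minus strand), chr8:13159061-13159160 (plus strand), chr8:3500419-3500518 (plus strand), chr17:34931153-34931252 (plus strand) and chr11:69666171-69666270 (minus strand). The window of Lamp1 held 4 matches, more than that of any other member.

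Rises were found among members with and without the motif. Tested genes outside the set were not split by it. Of 12 tested members with TCACGTG, 6 rose and 0 fell, beside 16.8% and 10.2% of all tested genes, with a median change of 0.37. Of 27 tested members with a window that lacks it, 11 rose and 2 fell, with a median of 0.31. The difference was not tested, a match is only a description of letters, and the absence of one from this window says nothing of a factor's binding elsewhere.

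Genes linked to lysosomes outside the set, called other lysosomal genes here, were read in the same fit. Besides enzymes and membrane proteins, they include genes for delivery, protease inhibition and transcription, whose products are not all in lysosomes. Of 57 listed, 54 were tested, with a median change of 0.39. Of these, 25 rose (46.3%, beside 16.8% of all tested genes) and 1 fell (10.2% of all tested genes). Their median log2 level was 2.15, against 1.59 for all tested genes. Of 16 other membrane proteins 11 rose (68.8%) and 0 fell. They included Npc1, the cholesterol exporter (1450 and 1420 against 3030 and 2760, a rise of 1.01 ± 0.09), the nucleoside transporter gene Slc29a3 (0.99 ± 0.07), the peptide transporter gene Abcb9 (0.97 ± 0.10) and Ostm1, a partner of a chloride channel (0.79 ± 0.10). Laptm4b (0.40 ± 0.10, adjusted p = 0.051) and Cd164 (0.24 ± 0.07) did not pass. All 16 had values above 0, as did 55.8% of all tested genes.

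Of 19 other enzymes and cofactors, 9 rose (47.4%) and 1 fell, beside 16.8% and 10.2% of all tested genes. Galc, galactosylceramidase, rose by 1.14 ± 0.25 and the carboxypeptidase gene Scpep1 by 0.92 ± 0.09. The probe of Galc was dim, and its change was 0.67 with normexp background correction, while the call ended with another percentile base (adjusted p = 0.0511) and with crossed replicate blocks (adjusted p = 0.095). Dnase2a, the acid DNase, fell from 1090 and 1060 to 508 and 588 (−0.98 ± 0.10), but its other probe had the opposite sign and the mean of both was 0.22, which did not pass (adjusted p = 0.171). Npc2, a lumenal cholesterol carrier, was at −0.18 ± 0.11.

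Among genes that deliver or activate the hydrolases, 3 of 11 rose (27.3%, beside 16.8% of all genes) and 0 fell. The mannose 6-phosphate receptor gene Igf2r rose from 52.1 and 52.9 to 113 and 97.8 (1.00 ± 0.10), a dim probe whose change was 0.52 with normexp. The retromer gene Vps35 rose by 0.74 ± 0.07 and Nagpa, the uncovering enzyme of the mannose 6-phosphate tag, by 0.41 ± 0.08. The other mannose 6-phosphate receptor gene, M6pr, was at 0.05 ± 0.08. Of 5 protease inhibitor genes listed as cathepsin inhibitors, the cystatin genes Cstb (0.67 ± 0.08) and Cst6 (0.57 ± 0.08) rose. That is 40%, beside 16.8% of all genes. Cystatin C, from Cst3, was at 0.00 ± 0.08.

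The transcription factor genes of the CLEAR network did not pass. Tfe3 read 8900 and 8970 in the controls and 10300 and 9810 with fluoxetine, a difference of 0.17 ± 0.08 (adjusted p = 0.169). Mitf was at −0.02 ± 0.08. Tfeb read 280 on control 1 but 88.1 on control 2, and 102 and 85.1 with fluoxetine, so its value of −0.76 ± 0.60 followed the high reading on control 1, where Ctss was high too. Another detected probe of Tfeb had the opposite sign. Tfec was too dim to be tested. These are transcript amounts, and protein amount or nuclear localization of the factors was not measured.

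**Figure D5:**
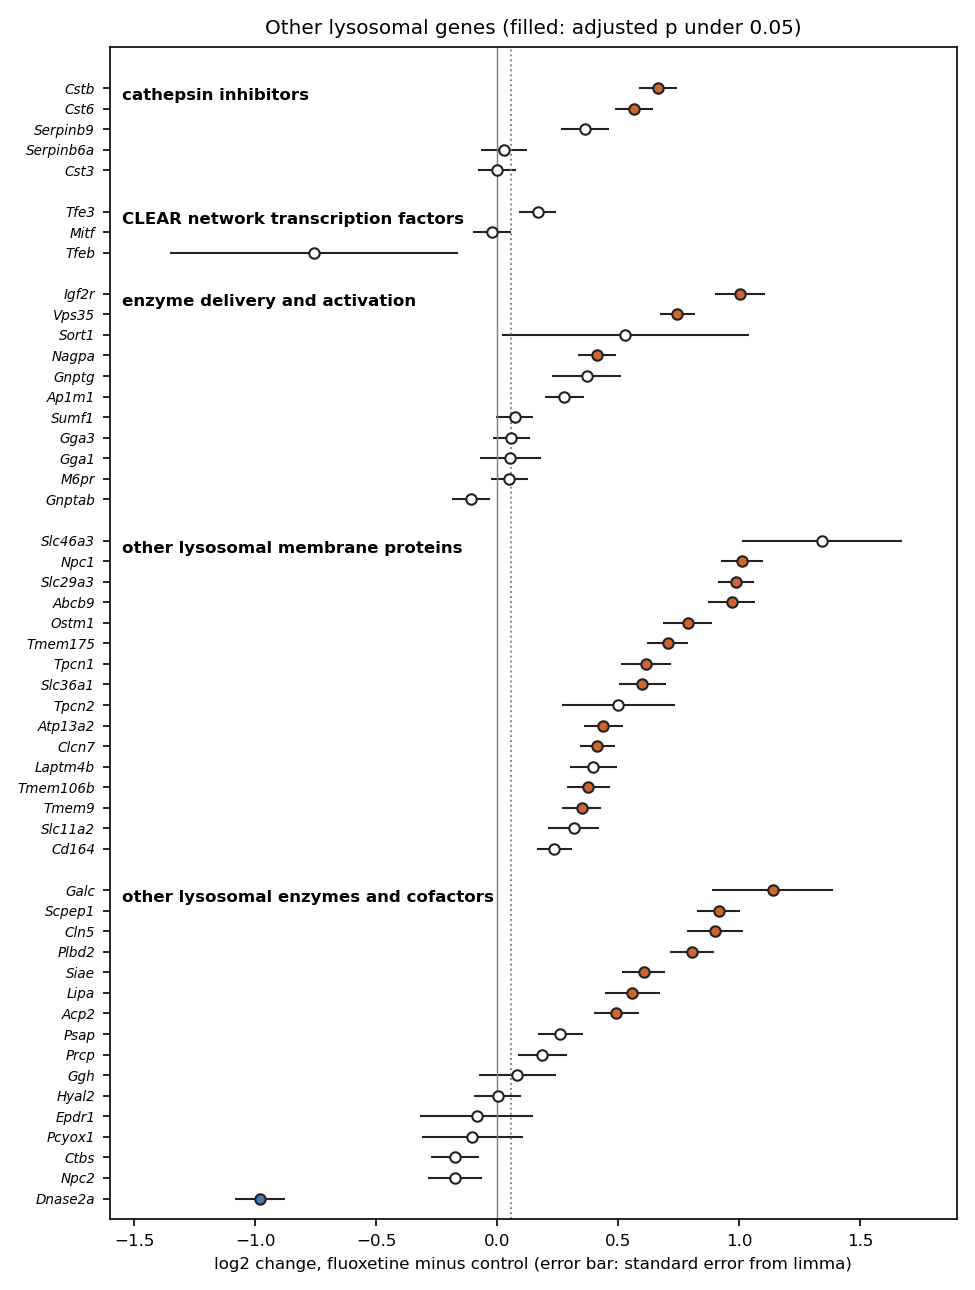
Log2 change (points) with its standard error (bars) of 51 of the 54 tested genes linked to lysosomes outside the set, in 5 lists. Filled points passed an adjusted p of 0.05 and the dotted line is the median of all tested genes, 0.06. Filled points lie to the right in 4 of the lists, Dnase2a is the only filled point on the left, and the list of transcription factors has none.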

How the data were processed

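RNA of 4 S-180 samples was measured on single-colour Agilent arrays, all on 1 slide and in 1 scan, so neither could be a block. The authors deposited linear spot intensity, background-corrected but not scaled between arrays, and per the file headers it was read with Feature Extraction 12.1.0.3. Other deposited columns are marks of 0 or 1 for spots above background, saturated or outlying, per the file headers. No later normalization is described in the sources used here. The number of arrays limits the precision.

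With R 4.3.3 and limma 3.58.1, control and non-uniform spots were left out (47 probes), repeated spots averaged, and log2 of the intensity taken minus the 75th percentile of each array over distinct probes (449, 415, 356 and 419 for control 1, control 2, fluoxetine 1 and fluoxetine 2). Of 56605 probes, 34645 matched 1 symbol of the RefSeq table of GRCm38.p6 by accession without version, and 21913 none. Coordinates of the array design, on another build, were not used. A probe was kept if both arrays of 1 or both groups read it well above background, and each gene was read by its brightest kept probe. The test was lmFit and eBayes with group as the only term, Benjamini-Hochberg adjusted; the script was tested on simulated data.

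Members, lists and the naming rule (per class, up to 4 called members of largest change and the 2 brightest others with their signals; of other lysosomal lists, up to 4 called and 2 others) were chosen with earlier results of these data known, and no list was set against other lists. A few further genes were named after their values were seen, and some genes of the other lysosomal lists are counted but not reported here by name. Alternatives covered normalization, percentile base, background correction, dim-probe filters, probe choice, trend, the replicate number as a block and leaving out each array. The background correction used median spot signals, since these files hold no mean spot signal.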

Additional observations from a re-analysis of the deposited data

How the results depend on the processing

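Of 43 tested members, 41 kept their direction when each array was left out. Under each of the 13 alternatives that could read them, 37 did (12 alternatives for Ctsk, which was not above background on all arrays). All 20 called members were among these 37. The groups of called members did not overlap, so leaving out 1 array could not turn their direction. With no dim-probe filter, limma gave 0 calls among 23771 genes, 0 among members and 0 among other lysosomal genes, with 5270 genes and 24 members at an unadjusted p under 0.05. With the filter there were 3648 calls over all genes, 20 over members and 26 over other lysosomal genes, and leaving out 1 array gave 0 to 2666, 0 to 15 and 0 to 19. Called members numbered 20 with quantile normalization (4009 over all genes), 20 with another percentile base (3938) and 22 with normexp (3708). They numbered 23 with probes above background on all arrays (4163), 22 with the mean of all probes (3623) and 26 with limma-trend (4887). The median change of members was 0.258 with the percentile over probes above background on all arrays. There the median of all tested genes was −0.001, against 0.057 in the main fit. For members it was 0.293 with normexp (0.046 over all genes) and 0.368 with the mean of all probes (0.055). When 1 array was left out it was 0.314 to 0.324 for members, beside 0.024 to 0.088 over all genes.

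With the replicate number as a block, limma called 1839 genes, 13 members and 17 other lysosomal genes. The numbers were not shown to pair the samples: the differences of replicate 1 minus replicate 2 in the groups correlated at −0.117. The crossed pairing, added after seeing the data, gave 2679, 16 and 20.

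The sign turned with the mean of all probes for Grn (0.866), Ppt1 (0.075), Dnase2a (0.223) and Cst3 (0.028), and with normexp for Gaa (−0.051), Laptm4a (−0.054) and Cst3 (0.032). It turned with quantile normalization for Laptm4a (−0.013), Serpinb6a (−0.024) and Hyal2 (−0.02), and with the other percentile base for Laptm4a (−0.026), Serpinb6a (−0.031), Hyal2 (−0.055) and M6pr (−0.007). Leaving out 1 array took both signs for Ctss (−1.94 to 0.69), Pla2g15 (−0.055 to 0.235), Cst3 (−0.051 to 0.051), Hyal2 (−0.073 to 0.078), Mitf (−0.069 to 0.026) and Serpinb6a (−0.057 to 0.11). Of these turned values, the one for Grn passed the test. The causes were not tested. Slide and scan could not be fitted as a block, since all arrays share them. Signal over background limited the reading of Ctsk, Ctsf and the 4 members too dim to test.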
